A study of Mus with 6 samples.

Results

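Nrf2 (gene Nfe2l2), its repressor Keap1 and 8 Nrf2 target genes were followed in the mouse brain transcriptome. Mice were given SCOP, labelled as scopoletin hydrobromide, with or without Ginsenoside Compound K (CK). The 10 genes were chosen by name, as Nfe2l2, Keap1, Hmox1, Nqo1, Gclc, Gclm, Srxn1, Slc7a11, Osgin1 and Sqstm1, and they are 10 of the 19505 named genes on the array. Each had 1 probe set, so no choice between probe sets was needed. ICR mice, an outbred stock, formed 3 groups with 2 one-colour Affymetrix arrays each. Control mice received saline by gavage and no SCOP, and SCOP mice received SCOP at 2 mg/kg by intraperitoneal injection. CK2 mice received CK at 40 mg/kg by gavage and the same SCOP dose. CK was given daily, and SCOP injections began partway through that course, after the CK dose. All mice went through behavioural testing before the brains were taken. The labels name the tissue only as brain and the injected agent as scopoletin hydrobromide. An earlier study of the same group, cited in the paper, names scopolamine hydrobromide instead, and the labels cannot settle which was injected. Neither the labels nor the methods say whether an array held RNA of a single mouse or of a pool.

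Nrf2 is a transcription factor that switches on antioxidant and detoxifying genes through antioxidant response elements in their promoters. Keap1 holds Nrf2 in the cytoplasm and hands it to a Cul3 ubiquitin ligase, so Nrf2 is broken down continuously until oxidants or electrophiles modify Keap1. Control is therefore largely at the protein level, which an array of RNA does not measure, while the target genes report on Nrf2 activity at the RNA level. In brain, astrocytes are known for a stronger Nrf2 response than neurons. The array comparisons address whether transcripts of this pathway differed after SCOP and after CK given with SCOP.

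The values below are log2 RMA values as deposited, and changes are differences between group means on that scale. The level treated as dim lay at the 95th percentile of negative controls on each array, 4.98 to 5.55 across arrays, and 48.5% of named genes were dim on every array. SCOP replicate 2 stood apart. It correlated with the other arrays across genes at 0.965 to 0.969, against 0.990 to 0.993 among the others, and its GC-rich background controls read 6.10 against 4.99 to 5.19. Genes above the dim level on at least 1 array were lower on it than the mean of the Control and CK2 arrays in 64.3% of cases, against 48.2% on SCOP replicate 1. The main results that rest on the SCOP arrays are given below with and without this array. All 8 neuron markers, all 7 astrocyte markers and all 6 measured oligodendrocyte markers were above the dim level on every array. In RNA of whole tissue, fewer cells of a type and less RNA per cell cannot be told apart.

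Nfe2l2, the gene of Nrf2 itself, read 5.0 and 4.82 in Control, 4.46 and 4.62 in SCOP, and 4.69 and 4.41 in CK2. Both Control arrays lay above all 4 SCOP and CK2 arrays, and the SCOP and CK2 arrays overlapped. The log2 change was 0.01 in CK2 against SCOP (95% confidence interval -0.48 to 0.49), -0.37 in SCOP against Control (-0.85 to 0.11) and -0.36 in CK2 against Control (-0.84 to 0.12). None of these passed the test, with adjusted p of 0.998, 0.86 and 0.9999 in limma. Nfe2l2 was dim on every array, so these are differences of values within the background range and no fold is given. SCOP replicate 2 was not an extreme value for this gene, and the change in SCOP against Control was -0.45 without it.

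Keap1, the substrate adaptor that captures Nrf2, read 6.44 and 6.66 in Control, 6.52 and 6.13 in SCOP, and 6.38 and 6.78 in CK2. The 3 groups overlapped, and the lowest value was that of SCOP replicate 2. Its log2 change was 0.25 in CK2 against SCOP (standard error 0.24, adjusted p of 0.89 in limma), which is 1.19-fold with a 95% confidence interval of 0.81 to 1.75. It was 0.06 without SCOP replicate 2. In CK2 against Control it was 0.03 with an interval of -0.52 to 0.58, and it was -0.04 with array medians centred.

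Sqstm1 encodes p62, an autophagy receptor that is both an Nrf2 target and a competitor for Keap1. It read 9.17 and 9.14 in Control, 9.25 and 8.46 in SCOP, and 9.33 and 9.24 in CK2. SCOP replicate 1 lay among the Control and CK2 arrays and SCOP replicate 2 lay far below them. CK2 exceeded SCOP by 0.43 on the log2 scale (standard error 0.27, with an adjusted p of 0.89 in limma). That difference was 0.03 with SCOP replicate 2 left out. Between Control and SCOP it was -0.30 on all arrays, and 0.10 once that array was left out. The CK2 arrays lay above the Control arrays by 0.13 on average without overlap (adjusted p of 0.9999 in limma).

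**Figure D1:**
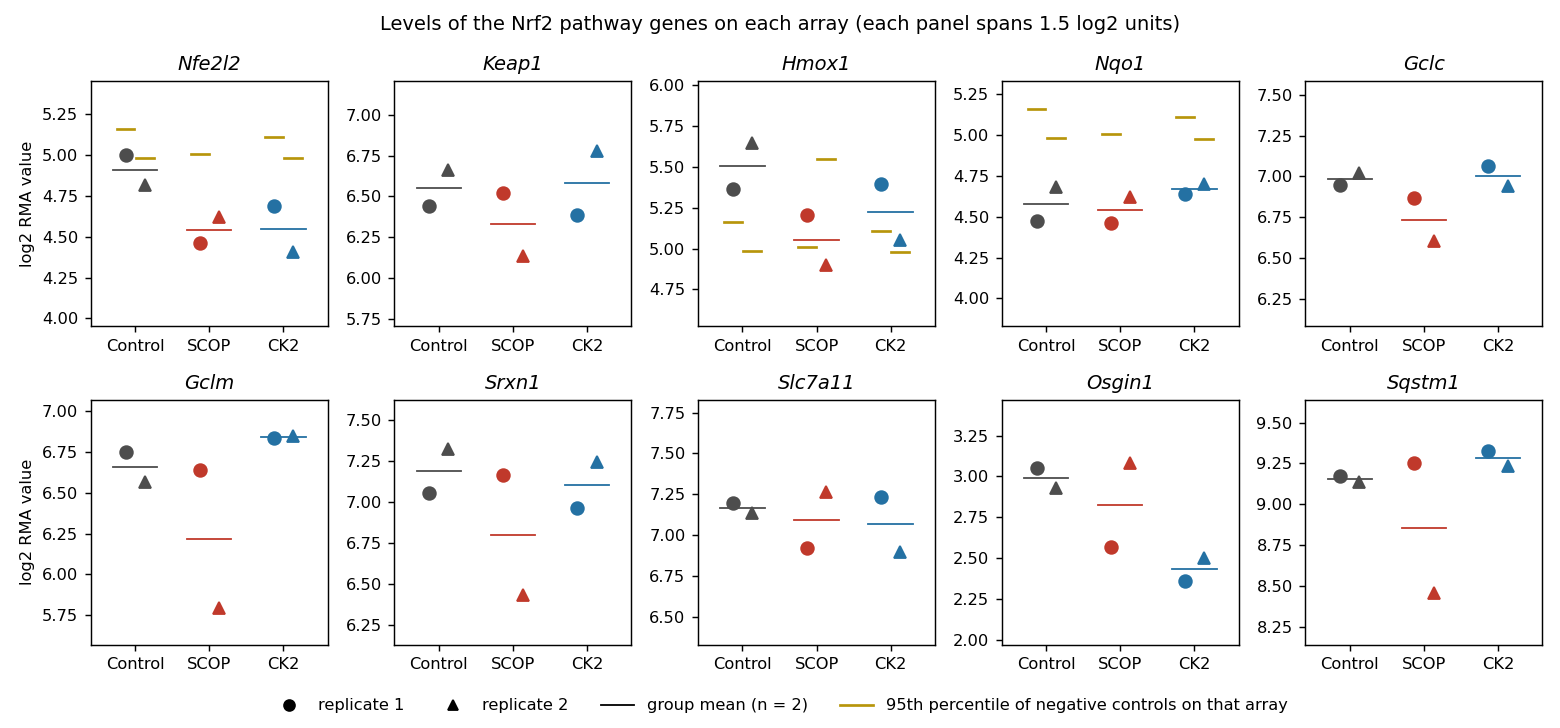
Log2 RMA value (vertical axis) of each of the 10 genes on the 6 arrays, grouped as Control, SCOP and CK2; circles are replicate 1, triangles replicate 2, thin lines the group mean of 2 arrays, and ochre bars the dim level of that array where it lies within the panel. Nfe2l2, Nqo1 and Osgin1 lie below the dim level on every array, and Gclm, Srxn1 and Sqstm1 have a low SCOP replicate 2 beside a SCOP replicate 1 that sits near the other groups.

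Of the genes that supply glutathione, the main small antioxidant of the cell, Gclm had the largest change of the 10 genes in CK2 against SCOP. Gclm encodes the modifier subunit of glutamate-cysteine ligase, the rate-limiting enzyme of glutathione synthesis, and Gclc its catalytic subunit. Gclm read 6.75 and 6.56 in Control, 6.64 and 5.80 in SCOP, and 6.83 and 6.85 in CK2. Both CK2 arrays lay above the other 4 arrays, and SCOP replicate 2 lay well below them all. The Control mean was 6.66 ± 0.13 (SD, n = 2). The SCOP mean was 6.22 ± 0.60 (SD, n = 2), and that of CK2 was 6.84 ± 0.0093 (SD, n = 2). CK2 exceeded SCOP by 0.62 on the log2 scale (standard error 0.29, adjusted p of 0.89 in limma), or 1.54-fold with an interval of 0.98 to 2.43, and it was 0.20 without SCOP replicate 2. In CK2 against Control the difference of means was 0.18, in which no SCOP array is used. Its adjusted p of 0.9999 in limma rests on a spread shared by all 6 arrays, so the SCOP arrays enter that p.

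Gclc read 6.95 and 7.02 in Control, 6.87 and 6.60 in SCOP, and 7.06 and 6.94 in CK2. Both SCOP arrays lay below all Control and CK2 arrays. The log2 change was 0.27 in CK2 against SCOP (standard error 0.20, with an adjusted p of 0.89 in limma) and -0.25 in SCOP against Control (adjusted p of 0.86 in limma), and without SCOP replicate 2 these were 0.13 and -0.12. Slc7a11, the cystine transporter that feeds glutathione synthesis, read 7.20 and 7.13 in Control, 6.92 and 7.26 in SCOP, and 7.24 and 6.90 in CK2. The replicates of SCOP and of CK2 lay further apart than the 3 group means, which were 7.16, 7.09 and 7.07. Its log2 change in CK2 against SCOP was -0.02 with an interval of -0.54 to 0.49.

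Hmox1 encodes heme oxygenase-1, which degrades heme. It read 5.37 and 5.65 in Control, 5.20 and 4.90 in SCOP, and 5.39 and 5.05 in CK2, close to the dim level and under it on SCOP replicate 2. Both SCOP arrays lay below both Control arrays, and CK2 overlapped with both other groups. The log2 change in SCOP against Control was -0.46 (standard error 0.23, with an adjusted p of 0.86 in limma), or 0.73-fold with an interval of 0.50 to 1.05, and it was -0.30 without SCOP replicate 2. Between SCOP and CK2 the difference was 0.17 (adjusted p of 0.90 in limma), 0.02 without SCOP replicate 2 and -0.0012 without CK2 replicate 1. The 3 measured erythroid markers, of 7 listed and with Epb42 dim on every array, averaged 4.82 and 4.58 in Control, 4.92 and 4.99 in SCOP, and 4.37 and 4.4 in CK2. Among them Alas2, which starts heme synthesis in red cell precursors, read 5.93 and 4.91 in Control, 6.03 and 6.04 in SCOP, and 4.76 and 4.83 in CK2. Both SCOP arrays were the highest for it. Slc4a1, the only one of the 3 above the dim level on every array, read 5.97 and 5.95 in Control, 5.65 and 6.13 in SCOP, and 5.53 and 5.73 in CK2, a log2 change of -0.07 in SCOP against Control, so the erythroid markers did not share a direction there. Their part in the Hmox1 values was not tested.

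Srxn1, sulfiredoxin, which reactivates overoxidised peroxiredoxins, read 7.06 and 7.33 in Control, 7.16 and 6.43 in SCOP, and 6.96 and 7.24 in CK2. Only SCOP replicate 2 lay outside the range of the other arrays. CK2 exceeded SCOP by 0.31 on the log2 scale (adjusted p of 0.89 in limma) and -0.06 without SCOP replicate 2. Nqo1, a quinone reductase, was dim on every array and spanned 4.46 to 4.70. It varied least of the 10 genes, by 0.24 from the lowest to the highest array, and its CK2 arrays lay above its SCOP arrays by 0.13 on average. Osgin1, an oxidative stress response gene, was also dim on every array. It read 3.05 and 2.93 in Control, 2.57 and 3.08 in SCOP, and 2.36 and 2.50 in CK2. Its difference in CK2 against Control, -0.56 (standard error 0.23), was the only one of the 30 with an unadjusted p under 0.05 in limma, and its adjusted p was 0.9999.

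**Figure D2:**
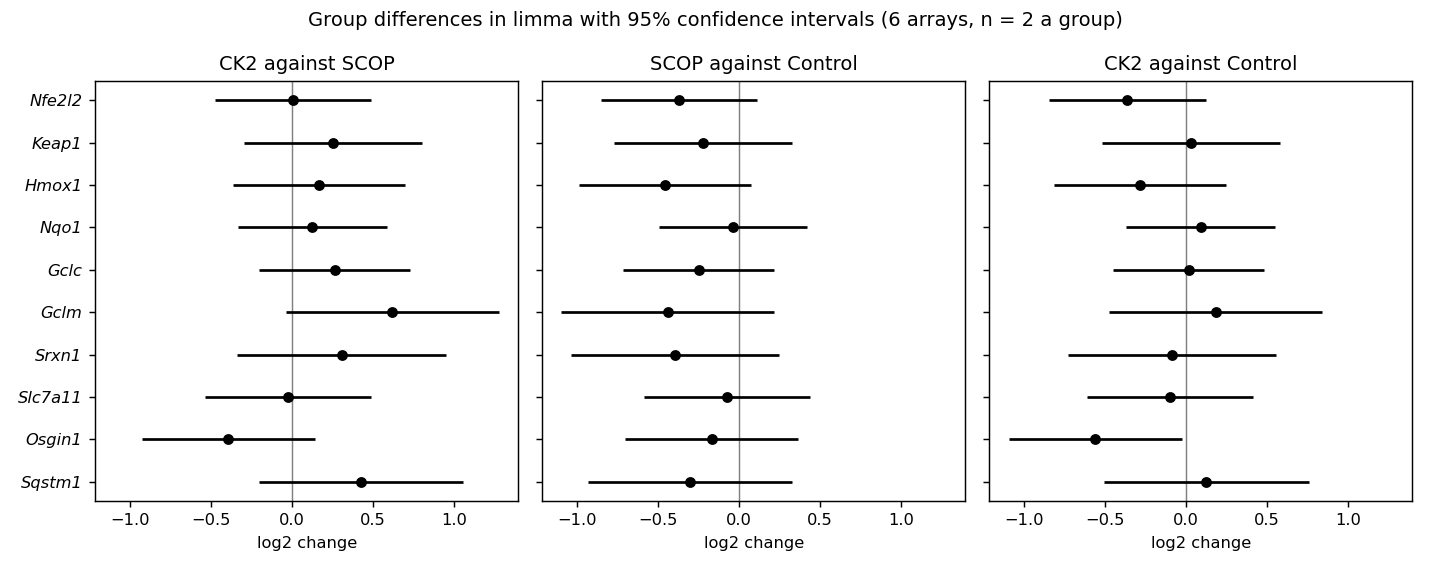
Log2 change (horizontal axis) of each of the 10 genes in the 3 comparisons, as points with 95% confidence intervals from limma on 6 arrays. The intervals include 0 in 29 of 30 cases, the exception being Osgin1 in CK2 against Control with -1.09 to -0.02.

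In CK2 against SCOP none of the 10 genes passed an adjusted p under 0.05 in limma, where 0% of the 19505 named genes did, and none had an unadjusted p under 0.05, where 2.57% did. The methods' t-test after adjustment called none either (2.99% of genes at an unadjusted p under 0.05, and none of the 10). The change was above 0 for 8 of the 10 genes and below 0 (47.6% of all genes) for Slc7a11 and Osgin1, and Nfe2l2 was below 0 instead with quantile normalization (-0.02) and with medians centred (-0.04). The median change was 0.21. Over all named genes 52.4% of changes were above 0 with a median of 0.02, and over those above the dim level on at least 1 array 64.4% were above 0 with a median of 0.10. The arrays of the 2 groups did not overlap for 4 of the 10 genes, with CK2 above SCOP for Nqo1, Gclc and Gclm and below it for Osgin1. Non-overlap was found in 29.7% of all genes, in 15.5% with CK2 higher and in 14.3% with CK2 lower.

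In SCOP against Control the change was below 0 for all 10 genes, from -0.46 for Hmox1 to -0.04 for Nqo1, except that Slc7a11 was at 0.05 with quantile and 0.06 with cyclic loess normalization. The median change was -0.27, where 49.9% of all named genes were below 0 with a median of 0.00 and the genes above the dim level had a median of -0.10, with 36.8% of them above 0 and the rest below. Nfe2l2, Hmox1 and Gclc were lower without overlap of arrays, and none was higher without overlap. Over all genes 28.2% did not overlap, 13.3% lower and 15% higher. No gene of the 10 passed in limma, at an adjusted p (0% of all genes) or at an unadjusted p under 0.05 (3.31% of all genes, 1.06% lower), nor in the methods' t-test (2.83% of all genes unadjusted). Both this comparison and that of CK2 against SCOP use the SCOP arrays, so a low SCOP value enters each with opposite sign.

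In CK2 against Control 5 changes were above and 5 below 0 (53.2% and 46.8% of all genes), with a median of -0.03, and with medians centred Keap1 and Gclc moved below 0. Gclm and Sqstm1 were higher without overlap and Nfe2l2 and Osgin1 lower, beside 18.4% and 15.7% of all genes (34.1% together). Only Osgin1 had an unadjusted p under 0.05 in limma (1.44% of all genes passed that p, 0.467% lower), and no gene passed after adjustment (0% of all genes).

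Taken one at a time, the SCOP arrays differed from the Control and CK2 arrays to unequal degrees. On SCOP replicate 1, 8 of the 10 genes lay below the mean of those 4 arrays, with deviations of -0.27 for Nfe2l2 to 0.03 for Sqstm1 and a median of -0.13, where 50.1% of all named genes lay below. On SCOP replicate 2, 8 of the 10 also lay below, but not the same 8. Deviations there ran from -0.95 for Gclm to 0.37 for Osgin1 with a median of -0.41. On that array 49.1% of all named genes and 64.3% of those above the dim level lay below, the latter with a median of -0.20. Srxn1 and Sqstm1 lay above only on SCOP replicate 1, and Slc7a11 and Osgin1 only on SCOP replicate 2. Gclm, Sqstm1, Srxn1, Hmox1, Keap1 and Gclc had the lowest deviations on SCOP replicate 2. They include every one of the 10 genes that was above the dim level on other arrays apart from Slc7a11. Without SCOP replicate 2, SCOP replicate 1 stands alone, with its spread taken from the other groups. The change in SCOP against Control was then below 0 for 9 genes with a median of -0.12, where 9451 of 19505 named genes were below 0 with a median of 0.01. In CK2 against SCOP it was above 0 for 8 genes with a median of 0.07, where 50.8% of all named genes were above 0. Srxn1 and Osgin1 were then below 0 at -0.06 and -0.13, and Slc7a11 was above 0 at 0.15. Without SCOP replicate 1, Gclm, Sqstm1 and Srxn1 had the largest changes of the 10. These were 1.04, 0.83 and 0.68 for CK2 over SCOP on the log2 scale, and -0.86, -0.70 and -0.76 for SCOP over Control. In those fits SCOP replicate 2 was the lone SCOP array. For SCOP over Control, Gclm and Srxn1 were at -0.44 and -0.40 on all arrays, and at -0.02 and -0.03 without SCOP replicate 2.

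**Figure D3:**
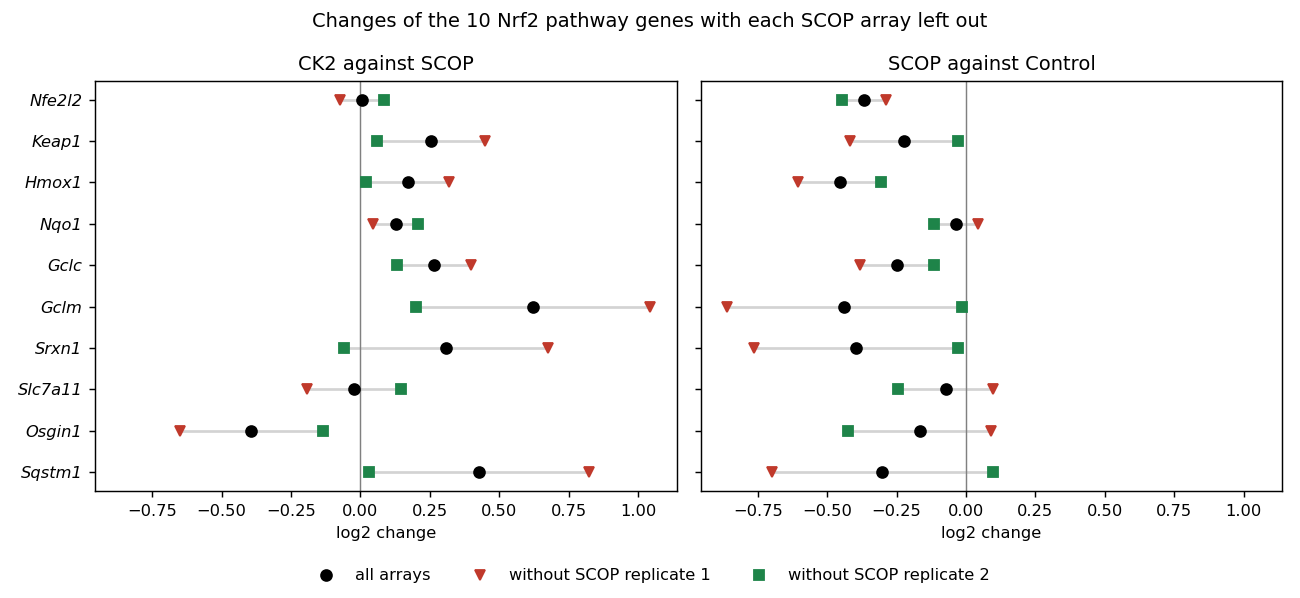
Log2 change (horizontal axis) of each of the 10 genes in CK2 against SCOP and in SCOP against Control, on all arrays (circles), without SCOP replicate 1 (triangles) and without SCOP replicate 2 (squares). Gclm, Srxn1 and Sqstm1 move most between the settings, and without SCOP replicate 2 they lie between -0.06 and 0.20 in CK2 against SCOP.

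Markers of brain cell types differed between the SCOP arrays as well. The neuron, endothelial and choroid plexus lists had a low mean on SCOP replicate 2 only. The 8 neuron markers averaged 9.34 on SCOP replicate 2, 10.13 on SCOP replicate 1, 10.06 and 10.11 in Control, and 10.11 and 10.12 in CK2. The 7 endothelial markers, of which Tek was dim on every array, averaged 5.43 on SCOP replicate 2, 6.38 on SCOP replicate 1, 6.15 and 6.35 in Control, and 6.39 and 6.36 in CK2. The 6 measured oligodendrocyte markers averaged 8.49 and 8.30 in SCOP, with 8.63 and 8.76 in Control and 8.76 and 8.53 in CK2, so this list was lowest on both SCOP arrays. All 6 lay below the mean of the Control and CK2 arrays on SCOP replicate 1, by a median of -0.12, and 4 of 6 on SCOP replicate 2, where Mbp and Mobp lay above it. Cldn11, a myelin tight junction gene, read 8.74 and 8.66 in Control, 8.08 and 7.69 in SCOP, and 8.70 and 8.60 in CK2. Its unadjusted p in limma was 0.0050 in SCOP against Control and 0.0071 in CK2 against SCOP (adjusted p of 0.86 and 0.89). These were the smallest p of its list, and 3.31% and 2.57% of all genes had an unadjusted p under 0.05 in these comparisons. The 6 choroid plexus markers, of which Aqp1 and Kcne2 were dim on every array, averaged 5.34 on SCOP replicate 2, below the range of 5.74 to 6.35 elsewhere, in which SCOP replicate 1 was highest. The 7 astrocyte markers differed less, with 8.43 and 8.53 in SCOP, 8.49 and 8.65 in Control, and 8.68 and 8.58 in CK2. The 7 microglial markers averaged 5.90 to 6.41 over the 6 arrays with no group apart, and the 6 markers of meninges and fibroblasts, with Lum dim on every array, averaged 5.83 to 6.07. The part of these markers in the values of the 10 genes was not tested.

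The wider pathway was read through 6 further lists, in none of which a gene passed an adjusted p under 0.05 in limma on all arrays. Of 17 genes that set the stability of Nrf2, none had an unadjusted p under 0.05 in limma in any comparison. Prkcd, a kinase that phosphorylates Nrf2, read 8.19 and 8.08 in Control, 8.04 and 7.26 in SCOP, and 8.23 and 8.11 in CK2. Cul3, the scaffold of the Keap1 ligase, had a difference of 0.12 between CK2 and SCOP, and the ubiquitin ligase genes Syvn1 and Fbxw11 had 0.48 and 0.21. Without SCOP replicate 2, Cul3 was at -0.20, Syvn1 at 0.10 and Prkcd, from 0.52 on all arrays, at 0.13. Fbxw11 did not rest on that array alone. It read 8.43 and 8.41 in Control, 8.15 and 8.07 in SCOP, and 8.28 and 8.36 in CK2, with both SCOP arrays below all Control and CK2 arrays. Its log2 change in SCOP against Control was -0.31 (adjusted p of 0.86 in limma). Vcp, a segregase that extracts ubiquitinated proteins, read 6.89 and 6.92 in Control, 7.37 and 4.58 in SCOP, and 7.18 and 6.97 in CK2. SCOP replicate 2 was under the dim level for Vcp, and the log2 change in CK2 against SCOP, 1.10 on all arrays (adjusted p of 0.89 in limma), was -0.29 without it. Cul3 and Vcp were named after their values were seen. The list median was 0.14 in CK2 against SCOP and -0.01 without SCOP replicate 2. Over genes above the dim level on at least 1 array these medians were 0.10 and -0.01.

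Of 13 partners and relatives of Nrf2, Maff alone had an unadjusted p under 0.05 in limma, and did so in CK2 against SCOP, where 1.14% of all genes were higher and 2.57% passed in either direction. Maff is a small Maf protein, the dimer partner class that Nrf2 needs to bind DNA. It read 2.26 and 2.26 in Control, 2.08 and 1.62 in SCOP, and 2.42 and 2.82 in CK2, a difference of 0.77 in CK2 against SCOP (adjusted p of 0.89 in limma) and 0.54 without SCOP replicate 2. All of its values were dim. Bach1, a repressor that competes with Nrf2 for its elements, read 5.31 and 5.44 in Control, 5.67 and 5.70 in SCOP, and 5.93 and 5.65 in CK2. Both Control arrays lay below the other 4, and the log2 change in CK2 against Control was 0.42 (adjusted p of 0.9999 in limma). Rxra, a nuclear receptor that binds Nrf2, had 0.35 in CK2 against SCOP, and Mafg and Nfe2l3 had 0.67 and 0.33 in SCOP against Control (adjusted p of 0.86 in limma for both). Mafg was at 0.0084 and Nfe2l3 at 0.41 with SCOP replicate 2 left out. Mafg was dim on both Control arrays and on SCOP replicate 1, and it read 5.92 on SCOP replicate 2.

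Among 21 measured glutathione and thioredoxin targets, 12 (57.1%) were above 0 in CK2 against SCOP with a median of 0.10. Over all named genes 52.4% were above 0, and over those above the dim level on at least 1 array 64.4%, with a median of 0.10. Txnrd1 had an unadjusted p under 0.05 in limma in CK2 against SCOP, higher in CK2, where 1.14% of all genes were. Txnrd1, cytosolic thioredoxin reductase, read 7.16 and 6.99 in Control, 6.86 and 6.24 in SCOP, and 7.11 and 7.16 in CK2. Both SCOP arrays lay below the other 4, and the log2 change was 0.58 in CK2 against SCOP (standard error 0.25, with an adjusted p of 0.89 in limma) and -0.52 in SCOP against Control (adjusted p of 0.86 in limma). Without SCOP replicate 2 these were 0.27 and -0.22. The glutathione S-transferase Gsta4 had 0.35 in CK2 against SCOP, and 0.18 without that array. Mgst1, a microsomal glutathione S-transferase, had 0.74 in SCOP against Control and read 8.18 on SCOP replicate 2 against 6.53 to 7.23 elsewhere, so the targets did not all lie low on that array, and the change was 0.18 without it. Several glutathione S-transferase genes have near-identical copies, and their probe sets may not keep them apart.

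Of 16 measured detoxification and export targets, 10 (62.5%) were above 0 in CK2 against SCOP with a median of 0.16. Over all named genes 52.4% were above 0, and 64.4% of those above the dim level on at least 1 array. Akr1b8 had an unadjusted p under 0.05 in limma in 2 comparisons. Akr1b8, an aldo-keto reductase, read 3.73 and 3.66 in Control, 4.21 and 4.12 in SCOP, and 3.56 and 3.53 in CK2. Both SCOP arrays lay above the other 4 and were alike, though every value was dim. The difference was -0.62 in CK2 against SCOP (lower in CK2, as for 1.43% of all genes) and 0.47 in SCOP against Control (higher in SCOP, as for 2.25% of all genes), with adjusted p of 0.89 and 0.86 in limma. Without SCOP replicate 2 the 2 differences were -0.66 and 0.52. Ephx1, microsomal epoxide hydrolase, was above the dim level on every array. It read 6.32 and 6.34 in Control, 5.85 and 5.92 in SCOP, and 6.39 and 6.12 in CK2. Both SCOP arrays lay below the other 4 and close to each other. Its log2 change was -0.45 in SCOP against Control (adjusted p of 0.86 in limma) and 0.37 in CK2 against SCOP (adjusted p of 0.89 in limma), and these were -0.48 and 0.40 without SCOP replicate 2.

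None of the 4 measured NADPH supply genes or the 8 heme and iron genes had an unadjusted p under 0.05 in limma. In CK2 against SCOP their list medians were -0.02 and -0.03, against 0.02 over all named genes. Fech, ferrochelatase, which completes heme synthesis, read 5.90 and 5.97 in Control, 6.16 and 5.64 in SCOP, and 5.58 and 5.51 in CK2, so both CK2 arrays lay below the other 4. Its log2 change in CK2 against Control was -0.38 (adjusted p of 0.9999 in limma). Slc48a1, a heme transporter, read 7.33 on SCOP replicate 2, with all other arrays at 8.05 to 8.27, and its log2 change of 0.32 for CK2 over SCOP was -0.09 without that array. The pentose phosphate enzyme Taldo1 had 0.21 there and 0.10 without it, and Me1 and Idh1, which make NADPH from malate and isocitrate, had 0.28 and -0.20 in CK2 against Control (adjusted p of 0.9999 in limma for both).

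The remaining genes with the smallest p of their lists in CK2 against Control were Eif2ak3 and Dpp3 among the regulators at 0.25 and 0.49, Gstm6 and Txn1 (thioredoxin) at 0.29 and -0.23, Slc40a1 (the iron exporter ferroportin) at -0.23, together with the aldehyde-oxidising enzymes Aox1 and Aldh3a1 at 0.58 and 0.38. Of these, Gstm6, Slc40a1, Aox1 and Aldh3a1 were dim on every array, so their values lie in the background range, and Dpp3 was dim on 3 of the 6 arrays. Counts in the lists moved with the SCOP array left out. Without SCOP replicate 1, 6 of the 17 regulators had an unadjusted p under 0.05 in limma with CK2 above SCOP, and 8 of the 21 glutathione and thioredoxin targets were higher and 5 lower, where 19.8% of all genes were higher and 14.7% lower. Among genes above the dim level on at least 1 array 32.9% were higher and 11% lower, and the regulators' share of 35.3% was near the former. Without SCOP replicate 2 these counts were 0 for the regulators, and 0 higher and 2 lower for the glutathione and thioredoxin targets, where 1.93% of all genes were higher and 1.83% lower.

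**Figure D4:**
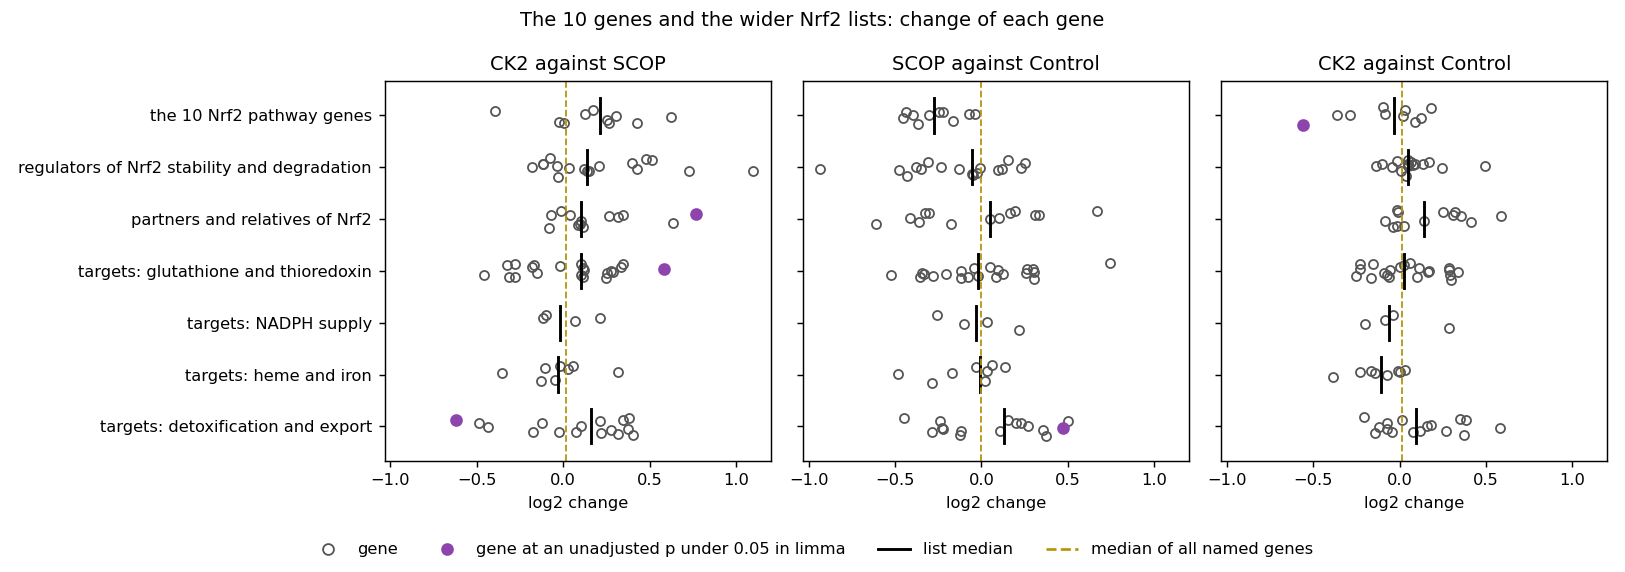
Log2 change (horizontal axis) of each measured gene of the 10 Nrf2 pathway genes and the 6 wider lists (rows) in the 3 comparisons; filled points have an unadjusted p under 0.05 in limma, black bars are list medians and the dashed line is the median of all named genes. In CK2 against SCOP the filled points are Maff, Txnrd1 and Akr1b8, at 0.77, 0.58 and -0.62.

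The genes whose pattern over the 6 arrays was nearest to that of 3 of the genes were found by the root mean square difference of log2 levels centred on each gene's own mean, among 9808 or 9809 genes above the dim level on at least 1 array, leaving out predicted genes, olfactory and vomeronasal receptors and small RNAs. For Keap1 they were Lrrc41 (0.033), Kalrn (0.040) and Sf3a2 (0.042), for Hmox1 Pfdn6 (0.045), Ckm (0.052) and Fgfr2 (0.057), and for Nfe2l2 Cep57l1 (0.052), Zfp382 (0.074) and Ugt8a (0.078). These are descriptions over 6 arrays that share SCOP replicate 2. Nfe2l2 was dim on every array, so its pattern lay within the background range, while genes dim on every array were not among the candidates. From the lowest to the highest array the 10 genes had a median range of 0.68, and 0.35 without SCOP replicate 2. Over all named genes these medians were 0.64 and 0.40.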

How the data were processed

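RNA of brain tissue was labelled with biotin and hybridised to 6 one-colour Affymetrix whole-transcript arrays. The deposited values are on a log2 scale, 1 per probe set and array. The submitters' processing notes name RMA, without a version, which corrects background, normalizes between arrays and summarises probes. They were used as deposited, so differences in total RNA cannot be read from them. The platform's annotation table gave 1 symbol to 19572 of 22206 transcript probe sets, and the highest-mean probe set was kept for 55 genes with several. All 10 symbols matched RefSeq (GRCm38.p6) by Entrez identifier. No coordinates or sequences are given. No sample column was left out.

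All 6 arrays were fitted in limma 3.58.1 under R 4.3.3 (lmFit, eBayes, 3 residual and 5.08 prior degrees of freedom), with Benjamini-Hochberg adjustment over 19505 genes and a threshold of 0.05. The script was tested on simulated data. There, in CK2 against SCOP, 0% of genes given a log2 change of 1 passed the adjusted threshold. At an unadjusted p under 0.05 in limma 88% of them were found, and 39% of those given 1.5 passed after adjustment. The largest change of the Nrf2 pathway genes on all arrays was 0.62, for Gclm. The absence of adjusted calls therefore does not show that these genes were unchanged. The labels call the samples biological replicates, and p-values measure the spread between these samples. The number of arrays limits the precision.

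The 10 genes and the lists were chosen with earlier results of these data known. Genes named from a wider list are the 2 with the smallest p in each comparison, most of which are described. For one list gene the current symbol, Skp1, replaced an older one. Prdx6, Tkt, G6pdx and 4 other list genes had no probe set under their symbol and were not analysed here. Alternatives were other normalizations, median centring, averaged probe sets, a filter on dim genes, eBayes with trend or robust, only the arrays compared, a replicate block, the methods' t-test and each array left out. The counts of the lists without each SCOP array were added after the data were seen.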

Additional observations from a re-analysis of the deposited data

How the results depend on the processing

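In limma no gene passed an adjusted p under 0.05 in any of the 3 comparisons under the alternatives that kept SCOP replicate 1. Leaving out each array gave 0 to 3240 genes in CK2 against SCOP and 0 to 3137 in SCOP against Control, the highest without SCOP replicate 1, and 0 to 2 of the 10 Nrf2 pathway genes in each (Gclm and Sqstm1). In the fit without SCOP replicate 1, SCOP replicate 2 was the lone SCOP array. The share of the 10 genes that passed there was below that of genes above the dim level on at least 1 array. This held in CK2 against SCOP and in SCOP against Control, so these calls do not set Gclm and Sqstm1 apart. At an unadjusted p under 0.05 in limma on all arrays, 0 of the 10 were found in both of these comparisons, where 2.57% and 3.31% of all genes were. With a replicate block Gclm made it 1 in CK2 against SCOP (adjusted p of 0.91), and the block changed no other call. In CK2 against Control the count was 1 (Osgin1), 0 to 1 on leaving out an array, 0 with dim genes filtered, which removes Osgin1, and 0 with trend, where the cause was not tested. The replicate numbers did not pair the arrays, with correlations of -0.03 to 0.02 between same-numbered deviations from group means, and the block gave 525, 636 and 251 genes at an unadjusted p under 0.05 against 502, 646 and 280.

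Of the 30 changes of the 10 genes, 4 crossed 0 on all 6 arrays and 13 on leaving out an array. With quantile normalization Nfe2l2 in CK2 against SCOP was at -0.0239 and Slc7a11 in SCOP against Control at 0.0530, the latter also at 0.0624 with cyclic loess. With medians centred Nfe2l2 in CK2 against SCOP was at -0.0381, and in CK2 against Control Keap1 was at -0.0377 and Gclc at -0.0509. The cause was not tested. On leaving out an array the changes in CK2 against SCOP ran from -0.14 to 0.15 for Nfe2l2, -0.0012 to 0.34 for Hmox1, -0.0597 to 0.68 for Srxn1 and -0.19 to 0.15 for Slc7a11. In SCOP against Control they ran from -0.14 to 0.0665 for Nqo1, -0.42 to 0.0906 for Osgin1, -0.24 to 0.0961 for Slc7a11 and -0.70 to 0.0951 for Sqstm1. In CK2 against Control they ran from -0.0455 to 0.0799 for Gclc, -0.17 to 0.23 for Keap1, -0.0122 to 0.19 for Nqo1, -0.27 to 0.0713 for Slc7a11 and -0.23 to 0.0525 for Srxn1. The filter on dim genes left 9590 genes and 7 of the 10. The count of all genes at an unadjusted p under 0.05 was 132, 174 and 62 with that filter, 271, 307 and 1011 with only the arrays compared, and 584, 552 and 975 in the methods' t-test, which called none after adjustment. Signal over background limits Nfe2l2, Nqo1 and Osgin1, and of the wider lists' named genes Maff, Akr1b8, Gstm6, Slc40a1, Aox1 and Aldh3a1, all of which were dim on every array.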
